A study of Mus musculus with 12 samples.

Results

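Complement genes of fibroblasts were followed on 12 arrays of SKPs (skin-derived precursors), cells of the mouse dermis grown as floating spheres. The genes are the complement components C3, C4b, C1ra, C2 and Cfb, the regulators Serping1 and Cd55, and the receptors C3ar1 and C5ar1, chosen by symbol in the array annotation with the brightest probe set of each symbol. A value was obtained for 8 of the 9 listed genes, out of 22180 genes with a symbol of their own, and C3 is not analysed here. Each of the 8 had 1 probe set.

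The spheres fell into 4 groups of 3: wounded skin with trimebutine maleate, wounded skin with alprostadil (prostaglandin E1), wounded skin with vehicle, and uninjured skin with vehicle. All came from mice aged 9 months of a strain given as CD57/Bl6, and no genetic modification is named. Secondary spheres were grown from cells at 50000 per ml with FGF2 and EGF. The title of the series says that drugs for skin repair were sought. The labels give no drug dose, treatment time or skin site and do not say how many animals made up an isolate, so an effect of the wound and one of the place on the body cannot be told apart. The series text speaks of independent isolates, and p-values measure the spread between them.

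Complement is a cascade of plasma and tissue proteins that tags surfaces and calls in leukocytes. It starts by the classical route (C1q with the proteases C1r and C1s), the lectin route (collectins with MASP proteases) or the alternative route (factor B and factor D), and the routes meet at the cleavage of C3. The small fragments C3a and C5a act through the receptors encoded by C3ar1 and C5ar1. The liver makes most plasma complement, but fibroblasts also secrete components and inhibitors, and their genes respond to interferons and inflammatory cytokines.

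Values are log2 expression per probe set, on which a difference of 1 is a doubling. Testing was limited to the 13153 genes whose level exceeded the median of the array on 3 or more of the 12. All differences come from 1 limma model of the 4 groups, with a standard error (SE, n = 3 per group) and a p-value adjusted by Benjamini-Hochberg over the 13153 genes, and a threshold of 0.05. C4b, C1ra, C2, Cfb and Serping1 lay above the median on all 12 arrays and Cd55 on 9. C3ar1 entered the test through exactly 3 arrays, wound alprostadil replicate 1 and wound vehicle replicates 2 and 3, and C5ar1, above the median on 1, was not tested.

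Some arrays stood apart before any comparison was made. All 8 fibroblast markers lay above the array median on every array, and of 6 genes known from SKPs, Sox9, Snai2, Twist1 and Vim did so on all 12 arrays, Nes on 11 and Sox2 on 0. The mean of the 8 fibroblast markers was 11.69 to 11.98 on 4 arrays, wound vehicle replicates 1 and 2 and wound alprostadil replicates 1 and 2, and 12.47 to 12.75 on the other 8. The mean of the 13 macrophage markers was 10.63 on wound alprostadil replicate 1, where each of the 13 had its highest value, and 6.23 to 7.58 elsewhere. Array medians ranged from 6.57 to 6.74. In bulk RNA, fewer cells of a type and less RNA per cell cannot be told apart.

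The promoters of 4 of the 8 genes are held in the RefSeq promoter table for GRCm38.p6: C1ra, C3ar1, C5ar1 and Cd55. The 250 bases before the start are printed for C1ra, the gene with the smallest p in wound vehicle against uninjured vehicle, and for C3ar1, the receptor that was high on 1 array. They lie at chr6:124512371-124512620 (plus strand) and chr6:122856158-122856407 (minus strand), each read along its gene.
C1ra: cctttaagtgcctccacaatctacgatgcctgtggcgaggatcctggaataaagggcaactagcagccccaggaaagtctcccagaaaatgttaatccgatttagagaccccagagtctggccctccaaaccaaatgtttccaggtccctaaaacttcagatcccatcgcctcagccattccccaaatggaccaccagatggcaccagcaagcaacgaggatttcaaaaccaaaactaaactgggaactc
C3ar1: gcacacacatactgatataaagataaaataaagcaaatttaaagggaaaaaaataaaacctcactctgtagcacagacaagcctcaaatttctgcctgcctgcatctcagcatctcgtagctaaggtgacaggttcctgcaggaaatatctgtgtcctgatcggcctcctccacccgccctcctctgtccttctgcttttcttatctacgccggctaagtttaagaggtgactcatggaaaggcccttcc
A search on both strands for the STAT motif TTCNNNGAA, an NF-kB motif, the C/EBP motif TTGCNNAA and the PU-box GAGGAA, a myeloid ETS motif, found no match in any of the 4 windows, so no letters are capitalised. Over all 32851 promoter windows of the same length the shares with a match were 7.02%, 0.98%, 9.56% and 23.3%, in that order. No match says only that these letters are not in the window.

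Wound vehicle was first set against uninjured vehicle, which compares spheres from wounds with spheres from intact skin in the absence of a drug. Cfb, C1ra, Serping1, C4b and C2 were lower on every wound vehicle array than on every uninjured array, by 1.62, 1.01, 0.86, 0.80 and 0.26 log2 units, and none of these differences passed the threshold. Cd55 was lower on average with overlapping arrays, and C3ar1 was slightly higher. Groups without overlap on the lower side were seen for 5 of the 7 tested genes, against 10% of all 13153 genes, and on the higher side for C3ar1 alone, against 8.01%. The count for C3ar1 is no support, since 2 of the arrays through which it entered the test belong to wound vehicle. In limma 0 of the 7 passed, where 0.0456% of all tested genes did, and 3 had an unadjusted p under 0.05, all lower (8.24% of all genes were lower at that level). The median difference of the 7 was -0.80, against 0.01 over all tested genes.

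**Figure D1:**
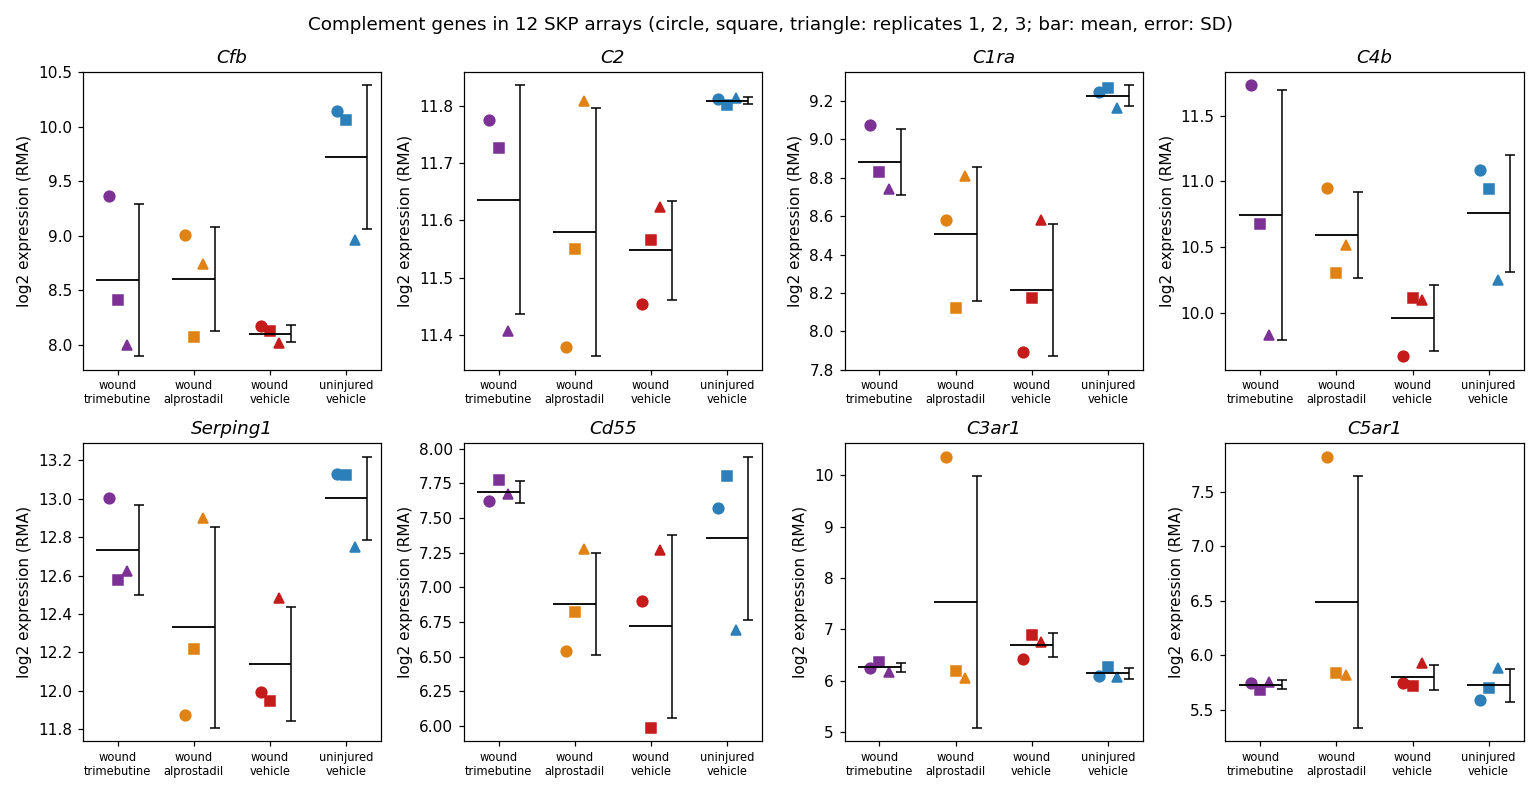
Log2 expression of the 8 complement genes (y axis, 1 panel each, with scales that differ and do not start at 0) on 12 arrays by group, with symbols for replicates, a bar for the mean and an error bar for the SD. Wound vehicle has the lowest mean for 6 genes, and C3ar1 and C5ar1 stand high on wound alprostadil replicate 1 alone.

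Cfb encodes factor B, the protease subunit of the alternative-route convertase. Its level was 8.17, 8.13 and 8.01 on the wound vehicle arrays, against 10.14, 10.06 and 8.96 on the uninjured vehicle arrays. The wound vehicle arrays lay close together, and uninjured replicate 3 lay between them and the other uninjured arrays. The difference was -1.62 ± 0.39 (SE), a 3.07-fold lower level, with an adjusted p of 0.187 in limma, and was -1.997 (adjusted p = 0.0688) without uninjured vehicle replicate 3. Over all 19 alternatives the adjusted p of Cfb ranged from 0.0688 to 0.603.

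C2 encodes the protease of the classical and lectin convertase, the counterpart of factor B. It read 11.45, 11.57 and 11.62 in wound vehicle, against 11.81, 11.80 and 11.81 in uninjured vehicle. The uninjured arrays agreed to the first decimal and every wound vehicle array lay below them. The difference was small, at -0.26 ± 0.12 (adjusted p = 0.414).

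C1ra encodes C1r, the protease that activates C1s in the first step of the classical route. It read 7.89, 8.17 and 8.58 in wound vehicle, against 9.25, 9.27 and 9.16 in uninjured vehicle. The gap between the closest arrays was wider than the range of the uninjured group and narrower than the range of the wound vehicle group. The difference was -1.01 ± 0.20, a 2.02-fold lower level, with an adjusted p of 0.118 and an unadjusted p of 4.12e-04. Among the 13153 genes its p had rank 45. Leaving out wound vehicle replicate 3 gave -1.19 (adjusted p = 0.0645), and the adjusted p over the 19 alternatives ran from 0.0645 to 0.432. C1rb, a close copy of C1ra, can share probes with it, so the reading cannot be assigned to C1ra with certainty. The probe set of C1rb differed by -0.76 ± 0.20 in the same comparison (adjusted p = 0.196).

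C4b encodes C4, which is cleaved in the classical and lectin routes and binds to surfaces. It read 9.67, 10.11 and 10.10 in wound vehicle, against 11.09, 10.94 and 10.25 in uninjured vehicle. Uninjured replicate 3 lay close to the wound vehicle arrays. The difference was -0.80 ± 0.41 (adjusted p = 0.441). C4a is a near copy of C4b, with the same limit on assignment.

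Serping1 encodes C1 inhibitor, which blocks C1r, C1s and the MASP proteases. It read 11.99, 11.95 and 12.48 in wound vehicle, against 13.13, 13.13 and 12.75 in uninjured vehicle. Replicate 3 of each group was the one nearest to the other group. The difference was -0.86 ± 0.25, a 1.82-fold lower level (adjusted p = 0.219).

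Cd55 encodes decay-accelerating factor, which takes convertases apart on the cell's own surface. It read 6.90, 5.99 and 7.27 in wound vehicle, against 7.57, 7.80 and 6.69 in uninjured vehicle. The groups overlapped, with uninjured replicate 3 below 2 of the wound vehicle arrays. The difference was -0.63 ± 0.35 (adjusted p = 0.473) and moved to -0.27 without wound vehicle replicate 2 and to -0.97 without uninjured vehicle replicate 3.

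Fibroblast markers are given beside these genes. Pdgfra read 11.51, 11.49 and 12.32 in wound vehicle, against 12.38, 12.55 and 11.92 in uninjured vehicle, and Col1a1 read 12.22, 11.95 and 13.14 against 12.87, 13.08 and 12.74. Of the 8 fibroblast markers 7 lay below 0 in this comparison, where 48.6% of all genes did, and 0 passed in limma (0.0456% of all genes). Lum alone had an unadjusted p under 0.05, on the lower side (8.24% of all genes), and the median of the 8 was -0.49. The marker mean was 11.98, 11.69 and 12.58 on the wound vehicle arrays and 12.60, 12.75 and 12.47 on the uninjured arrays. Of 5 endothelial markers 2 were tested, and both were higher at an unadjusted p under 0.05 (4.75% of all genes), with 0 passing in limma. They were Cdh5, at 2.01 with overlapping arrays, and Tek, at 0.60, with a median of 1.30. The untested Pecam1, Kdr and Emcn averaged 6.04, 6.13 and 4.32 in wound vehicle, against 5.91, 6.26 and 4.18 in uninjured vehicle. The mean of the 5 was 6.33 to 6.90 on wound vehicle arrays and 6.10 to 6.17 on uninjured arrays. The part of these markers in the differences was not tested.

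Wound trimebutine was then set against wound vehicle, which compares spheres from drug-treated and vehicle-treated wounds. Trimebutine is an antispasmodic that acts on opioid receptors and ion channels. C1ra, Serping1 and Cd55 were higher on every trimebutine array than on every wound vehicle array, by 0.67, 0.59 and 0.97 log2 units, and none passed. C4b and Cfb were higher on average with overlapping arrays, C2 was nearly level, and C3ar1 was lower on every trimebutine array, as were 6 of the 8 tested macrophage markers. Groups without overlap on the higher side were seen for 3 of the 7 tested genes, against 9.21% of all genes, and on the lower side for C3ar1 alone, against 6.63%. Here too the count for C3ar1 is no support, since it entered the test in part through wound vehicle arrays, where it was higher. In limma 0 of the 7 passed, as did 0% of all tested genes, and 3 of the 7 had an unadjusted p under 0.05, all higher (6.38% of all genes). The wound vehicle arrays of the first comparison serve here with the opposite sign, so opposite signs in both are no further support.

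C1ra read 9.07, 8.83 and 8.74 with trimebutine, against 7.89, 8.17 and 8.58 with vehicle. The difference was 0.67 ± 0.20 (adjusted p = 0.528), and it was 0.85 (adjusted p = 0.0833) without wound vehicle replicate 3, with a range of 0.0833 to 0.976 over the 19 alternatives. Serping1 read 13.005, 12.58 and 12.62, against 11.99, 11.95 and 12.48, a difference of 0.59 ± 0.25 (adjusted p = 0.528). For both genes wound vehicle replicate 3 was the vehicle array nearest to the trimebutine arrays.

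Cd55 read 7.62, 7.77 and 7.67 with trimebutine, against 6.90, 5.99 and 7.27 with vehicle. The trimebutine arrays were tightly grouped and the vehicle arrays were spread over more than a log2 unit. The difference was 0.97 ± 0.35, a 1.96-fold higher level (adjusted p = 0.528), and 0.60 without wound vehicle replicate 2. The highest group mean of Cd55 was that of trimebutine, 7.69 ± 0.08 (SD, n = 3), and uninjured vehicle, at 7.35 ± 0.59, did not differ from it beyond the spread.

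C4b and Cfb varied most within the trimebutine group. C4b read 11.73, 10.67 and 9.83 with trimebutine, against 9.67, 10.11 and 10.10 with vehicle, and Cfb read 9.36, 8.41 and 8.001, against 8.17, 8.13 and 8.01. Replicate 1 was the highest trimebutine array for both genes, and replicate 3 lay within or below the vehicle range. The differences were 0.79 ± 0.41 for C4b (adjusted p = 0.545) and 0.49 ± 0.39 for Cfb (adjusted p = 0.646). Without trimebutine replicate 1 they were 0.29 and 0.10, and without trimebutine replicate 3 they were 1.24 and 0.78. C2 read 11.77, 11.73 and 11.41, against 11.45, 11.57 and 11.62, a difference of 0.09 ± 0.12 (adjusted p = 0.791). The fibroblast marker mean on the trimebutine arrays was 12.54 to 12.59, against 11.69 to 12.58 on the wound vehicle arrays. Of the 8 fibroblast markers 7 lay above 0 and Thy1 below it. In limma 0 of the 8 passed, and 3 had an unadjusted p under 0.05, all higher (6.38% of all genes). Their median difference was 0.50, against 0.59 for the 7 tested complement genes and -3.6e-05 over all tested genes. The part of the fibroblast markers in the differences was not tested.

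**Figure D2:**
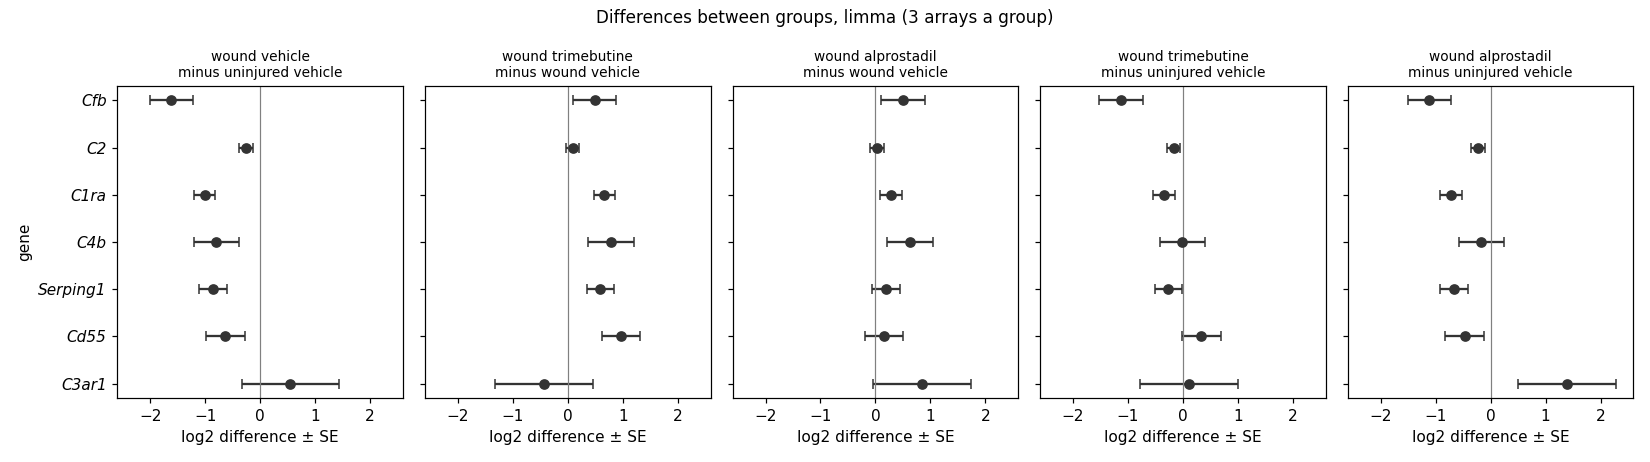
Log2 difference (x axis) with its SE for the 7 tested complement genes (y axis) in 5 comparisons of 3 against 3 arrays, in limma. Cfb, C2, C1ra, C4b, Serping1 and Cd55 lie left of 0 in wound vehicle minus uninjured vehicle and right of 0 in both drug groups minus wound vehicle, where the same wound vehicle arrays enter with the opposite sign, and no point passed the threshold.

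Alprostadil, an agonist of prostaglandin E receptors, was compared with the same wound vehicle arrays. Only C4b was without overlap on the higher side among the 7 tested genes, against 2.78% of all genes, and none was so on the lower side, against 3.12%. In limma 0 of 7 passed, as did 0% of all genes, and 0 of 7 had an unadjusted p under 0.05, against 2.75% of all genes. All 7 differences were above 0, as were 59.4% of all genes. C4b read 10.95, 10.30 and 10.52 with alprostadil, against 9.67, 10.11 and 10.10 with vehicle, a difference of 0.63 ± 0.41 (adjusted p = 0.998).

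Cfb read 9.00, 8.07 and 8.74 with alprostadil, against 8.17, 8.13 and 8.01 with vehicle, a difference of 0.50 ± 0.39. Replicate 2 lay within the vehicle range. The difference was 0.29 ± 0.20 for C1ra, 0.19 ± 0.25 for Serping1, 0.16 ± 0.35 for Cd55 and 0.03 ± 0.12 for C2, each at an adjusted p of 0.998. Serping1 read 11.87, 12.22 and 12.90 with alprostadil, and replicate 1 was the lowest of the 12 arrays for this gene. Without alprostadil replicate 1, the array with high macrophage markers, Serping1 differed by 0.42, C4b by 0.45 and Cfb by 0.30, and 0 of the tested genes passed.

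The drug groups were also set against uninjured vehicle, and no difference passed the threshold. These 2 comparisons share the uninjured arrays with the first one, so the values are set side by side and not counted as further support. Cfb differed by -1.13 ± 0.39 with trimebutine (adjusted p = 0.514) and by -1.12 ± 0.39 with alprostadil (adjusted p = 0.636), beside -1.62 with vehicle. C1ra differed by -0.34 ± 0.20 with trimebutine (adjusted p = 0.852) and by -0.72 ± 0.20 with alprostadil (adjusted p = 0.538), and all arrays of both drug groups lay below the uninjured arrays. Groups without overlap on the lower side were seen for 2 of the 7 tested genes with trimebutine, C1ra and C2, against 6.61% of all genes, and for C1ra alone with alprostadil, against 4.36%. Serping1 differed by -0.27 ± 0.25 and -0.67 ± 0.25, C4b by -0.01 ± 0.41 and -0.17 ± 0.41, and C2 by -0.17 ± 0.12 and -0.23 ± 0.12, with trimebutine and alprostadil in that order. Cd55 differed by 0.33 ± 0.35 with trimebutine and by -0.47 ± 0.35 with alprostadil. Of the 7 tested genes 0 passed in either comparison, where 0.198% and 0% of all genes did, and 1 and 3 had an unadjusted p under 0.05 on the lower side (3.6% and 3.97% of all genes).

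By group means, wound vehicle was the lowest of the 4 groups for 6 of the 8 genes, which are Cfb, C2, C1ra, C4b, Serping1 and Cd55, where 32% of all tested genes had their lowest mean there. Uninjured vehicle was the highest for all of these except Cd55, against 23.6% of all tested genes. Cfb averaged 8.59 ± 0.70 with trimebutine, 8.60 ± 0.48 with alprostadil, 8.10 ± 0.08 in wound vehicle and 9.72 ± 0.66 in uninjured vehicle (SD, n = 3 each). The ranges of both drug groups took in wound vehicle values, and the SD of wound vehicle was much smaller than theirs. For C1ra the means were 8.88 ± 0.17, 8.51 ± 0.35, 8.22 ± 0.35 and 9.23 ± 0.05 in the same order of groups. In the limma F test over the 4 groups 0 of the 7 genes passed, where 0.0152% of all genes did, and the adjusted p was 0.357 for C1ra, 0.567 for Cfb and 0.576 for Serping1. At an unadjusted p under 0.05 these were the 3 genes of the 7 (7.89% of all genes).

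C3ar1 and C5ar1, the receptors of C3a and C5a, are best known on myeloid cells. C3ar1 read 10.36, 6.19 and 6.06 on the alprostadil arrays, 6.24, 6.36 and 6.17 with trimebutine, 6.43, 6.89 and 6.76 in wound vehicle and 6.09, 6.26 and 6.08 in uninjured vehicle. It was high on alprostadil replicate 1 alone, and the wound vehicle arrays lay above those of trimebutine and uninjured vehicle without overlap. That gap is no support, since C3ar1 entered the test in part through wound vehicle arrays. C5ar1 read 7.82, 5.84 and 5.82 with alprostadil, 5.75, 5.68 and 5.76 with trimebutine, 5.74, 5.72 and 5.93 in wound vehicle and 5.59, 5.70 and 5.89 in uninjured vehicle. Apart from alprostadil replicate 1 it stayed below the array median on every array.

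In limma C3ar1 differed by 0.84 ± 0.89 between alprostadil and wound vehicle (adjusted p = 0.998), by -0.44 ± 0.89 between trimebutine and wound vehicle (adjusted p = 0.853) and by 0.55 ± 0.89 between wound vehicle and uninjured vehicle (adjusted p = 0.81). Without that array C3ar1 no longer lay above the median on 3 arrays and was not tested. In a fit of only wound vehicle and uninjured vehicle its SE was 0.14 and its adjusted p 0.229, the lowest of 14 alternatives that ran up to 0.951. C3ar1 entered the test through arrays of wound vehicle and alprostadil, where it was higher, so none of these p-values is support. C5ar1, fitted without the filter on dim probe sets, differed by 0.69 ± 0.42 between alprostadil and wound vehicle (adjusted p = 0.947).

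Macrophage markers stood high on the same array. Csf1r, the CSF-1 receptor of macrophages, read 10.12 on alprostadil replicate 1 and at most 6.95 elsewhere, and Ctss (cathepsin S) read 12.97 there. On the wound vehicle arrays Ctss read 7.90, 8.66 and 7.23, against 7.37, 6.54 and 6.58 on the uninjured arrays, and the marker mean was 7.09, 7.58 and 6.89, against 7.02, 6.58 and 6.53. Of the 8 macrophage markers that were tested, 7 had a higher mean in wound vehicle than in uninjured vehicle (median 0.93), and 0 passed in limma or had an unadjusted p under 0.05. Cd68, Tyrobp and Fcer1g, named after their values were seen, were higher on every wound vehicle array, against 8.01% of all genes. Cd14, of the same list, went the other way: it was lower on every wound vehicle array, by 0.98, against 10% of all genes. In trimebutine against wound vehicle 7 of the 8 had a lower mean (median -1.004) and 0 passed or had an unadjusted p under 0.05. Ctss, Cd68, Lyz2, Tyrobp, Fcer1g and Laptm5 were lower on every trimebutine array, against 6.63% of all genes, and Cd14 was higher on average with overlapping arrays. The marker mean was 6.96, 6.32 and 6.23 with trimebutine, against 7.09, 7.58 and 6.89 with vehicle. The part of these markers in the receptors' levels was not tested.

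**Figure D3:**
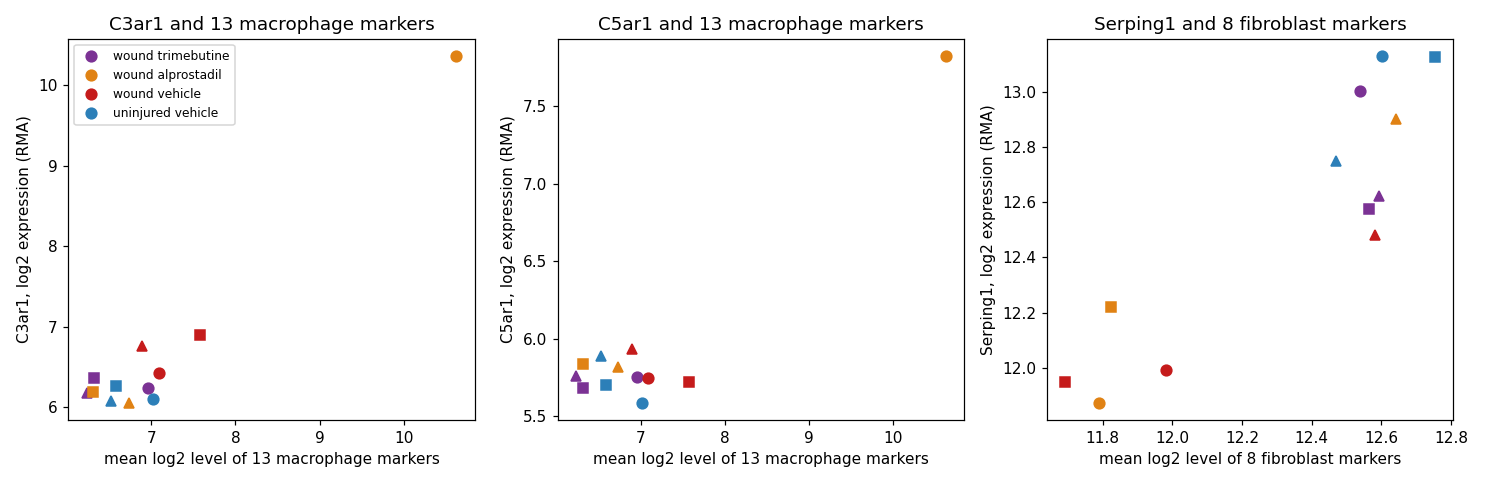
Log2 level of C3ar1 and C5ar1 (y axes) against the mean log2 level of 13 macrophage markers (x axis), and of Serping1 against that of 8 fibroblast markers, on 12 arrays, with colours for groups and shapes for replicates. Wound alprostadil replicate 1 stands alone at a macrophage mean of 10.63, and the 4 arrays with a fibroblast mean below 12 have the lowest Serping1.

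The genes most like C3ar1 over the 12 arrays, by Pearson's r among 13146 other tested genes, were Cd93 (0.989), Alox5ap (0.986), Ncf1 (0.985), Nckap1l (0.985) and Arl11 (0.984). The r values of these genes describe mostly the 1 array on which C3ar1 was high. A like list had been planned for C3, and it was made for Cfb in its place after the values were seen: Il23r (0.981), Gm10499 (0.965), Vgll3 (0.964), Nfasc (0.961) and Slamf8 (0.961).

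Across the 12 arrays the components and inhibitors had r values of one sign, and C3ar1 ran against some of them. All 15 pairs among C4b, C1ra, C2, Cfb, Serping1 and Cd55 had a Pearson's r above 0, between 0.371 and 0.872. The share of such pairs over all genes was not computed. On the 8 arrays with high fibroblast markers C2 and Cd55 had r = -0.24 and C1ra and Cd55 r = 0.0149, while the other pairs stayed above 0. Of the 28 pairs among the 8 genes, 8 had an adjusted permutation p under 0.05 for r (two-sided, 100000 resamples, Benjamini-Hochberg over 28 pairs), and 5 of these also for Spearman's rho. The resamples took no account of the groups, so the permutation p-values of these pairs also take in differences between groups. Of the 8, 6 had r above 0 and 2 had r below 0: Serping1 and C3ar1 (r = -0.581, p = 0.00171, adjusted permutation p = 0.0183; rho = -0.713, p = 0.0111, adjusted permutation p = 0.0519), and C2 and C3ar1 (r = -0.558, p = 0.0116, adjusted permutation p = 0.0406; rho = -0.636, p = 0.0291, adjusted permutation p = 0.0905). Without the 2 arrays farthest from the median of the first gene these r values were -0.451 and -0.607. Without alprostadil replicate 1 alone they were -0.639 and -0.394, and on the 8 arrays with high fibroblast markers -0.575 and -0.313. Among the 15 pairs of components and inhibitors the closest was C1ra and Serping1, a protease and its inhibitor (r = 0.872, p = 3.8e-04, adjusted permutation p = 0.0106, and rho = 0.853, p = 8.2e-04, adjusted permutation p = 0.0224). Its r was 0.874 without the 2 arrays farthest from the median of C1ra and 0.93 on the 9 arrays without the 3 of lowest median. The arrays fall into 4 with low and 8 with high fibroblast markers, and on those 8 the r of C1ra and Serping1 was 0.837.

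C4b and Cfb had an r of 0.759 (p = 0.00376, adjusted permutation p = 0.0216) and a rho of 0.825 (p = 0.0016, adjusted permutation p = 0.0224). The r was 0.834 without the 2 arrays farthest from the median of C4b and 0.725 on the 8 arrays with high fibroblast markers. For C1ra and Cfb r was 0.774 (p = 0.00386, adjusted permutation p = 0.0216) and rho 0.741 (p = 0.0079, adjusted permutation p = 0.0442), with r = 0.787 without the 2 arrays farthest from the median of C1ra, 0.733 without the 3 of lowest median and 0.924 on those 8. Deviations from group means, which leave the group differences out, gave r = 0.886 for C4b and Cfb, 0.647 for C1ra and Serping1 and 0.468 for C1ra and Cfb. C2 and Serping1 (r = 0.816, rho = 0.783) and C1ra and C2 (r = 0.722, rho = 0.748) completed the 5 pairs, with adjusted permutation p of 0.0183 and 0.0392 for r and 0.0339 and 0.0442 for rho, and r was 0.621 and 0.652 on the 8 arrays. Serping1 and Cd55, the inhibitors, had r = 0.761 (p = 0.00487, adjusted permutation p = 0.0227) and rho = 0.692 (p = 0.0163, adjusted permutation p = 0.0651), and r was 0.587 without the 2 arrays farthest from the median of Serping1, 0.693 on deviations from group means and 0.232 on the 8 arrays with high fibroblast markers. C3ar1 and C5ar1 had r = 0.968 but rho = 0.0909 (p = 0.0289 and 0.781, adjusted permutation p = 0.0675 and 0.781), and r was 0.123 on the 11 arrays without alprostadil replicate 1.

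Other genes of the cascade were taken from 4 lists of recognition molecules and proteases, terminal components, regulators and receptors. Of 48 listed genes 45 had a value and 22 were tested. In limma 0 of the 22 passed in any of the 5 comparisons. In wound vehicle against uninjured vehicle 13 of the 22 lay below 0, where 48.6% of all genes did, and 6 had an unadjusted p under 0.05, all lower (8.24% of all genes). Among these 6 is C6, which entered the test through the uninjured arrays, where it was high, and so adds no support. The median of the 22 was -0.06, against -0.80 for the 7 tested genes described above.

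Among recognition molecules and proteases, Colec12, a scavenger collectin, differed by -0.40 and Masp1, a protease of the lectin route, by -1.12 ± 0.29 (adjusted p = 0.195) between wound vehicle and uninjured vehicle. Masp1 read 9.32, 8.86 and 9.78 in wound vehicle, against 10.77, 10.51 and 10.03 in uninjured vehicle. C1s1, the protease that C1r activates, was named after its values were seen and differed by -0.65 ± 0.24 (adjusted p = 0.304). C1qb, a chain of the recognition molecule C1q made mainly by macrophages, read 11.58 on alprostadil replicate 1 and at most 6.999 elsewhere, and Cfp (properdin, which stabilises the alternative convertase) read 9.99 there and at most 8.03 elsewhere.

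In the terminal pathway, whose proteins form the membrane attack complex, C7 read 5.20, 5.23 and 5.74 in wound vehicle, against 7.95, 7.79 and 7.11 in uninjured vehicle. The difference was -2.23 ± 0.42 (adjusted p = 0.113), and the groups did not overlap. C7 lay above the array median on 6 arrays and below it on all wound vehicle arrays, so its size in that group is read from a dim signal. With trimebutine C7 read 7.23, 6.10 and 6.98, a difference of 1.38 ± 0.42 from wound vehicle (adjusted p = 0.528). C6 differed by -1.13 ± 0.31 between wound vehicle and uninjured vehicle (adjusted p = 0.204). It lay above the array median on 5 arrays, all uninjured arrays among them, and below it on all wound vehicle arrays. C6 would not have entered the test without the uninjured arrays, where it was high, so its difference is no support. Hc, which encodes C5, differed by 0.71 ± 0.49 (adjusted p = 0.556).

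Among regulators, Cd59a, which blocks the membrane attack complex, differed by -0.01 ± 0.14 and C1qbp, a mainly mitochondrial protein that binds C1q, by 0.01 ± 0.17 in wound vehicle against uninjured vehicle. Clu (clusterin) differed by -0.57 ± 0.31 (adjusted p = 0.473). Csmd3, a large membrane protein with complement control domains, had the smallest p of these lists, with a difference of -1.42 ± 0.23 (adjusted p = 0.0671). Like C7, it lay below the array median on all wound vehicle arrays, and above it on 8 arrays, so its size in wound vehicle is read from a dim signal. Among receptors, Itgb2, the beta chain of complement receptor CR3, read 11.46 on alprostadil replicate 1 and at most 8.36 elsewhere, and Cd93 read 11.37 there and at most 7.23 elsewhere.

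**Figure D4:**
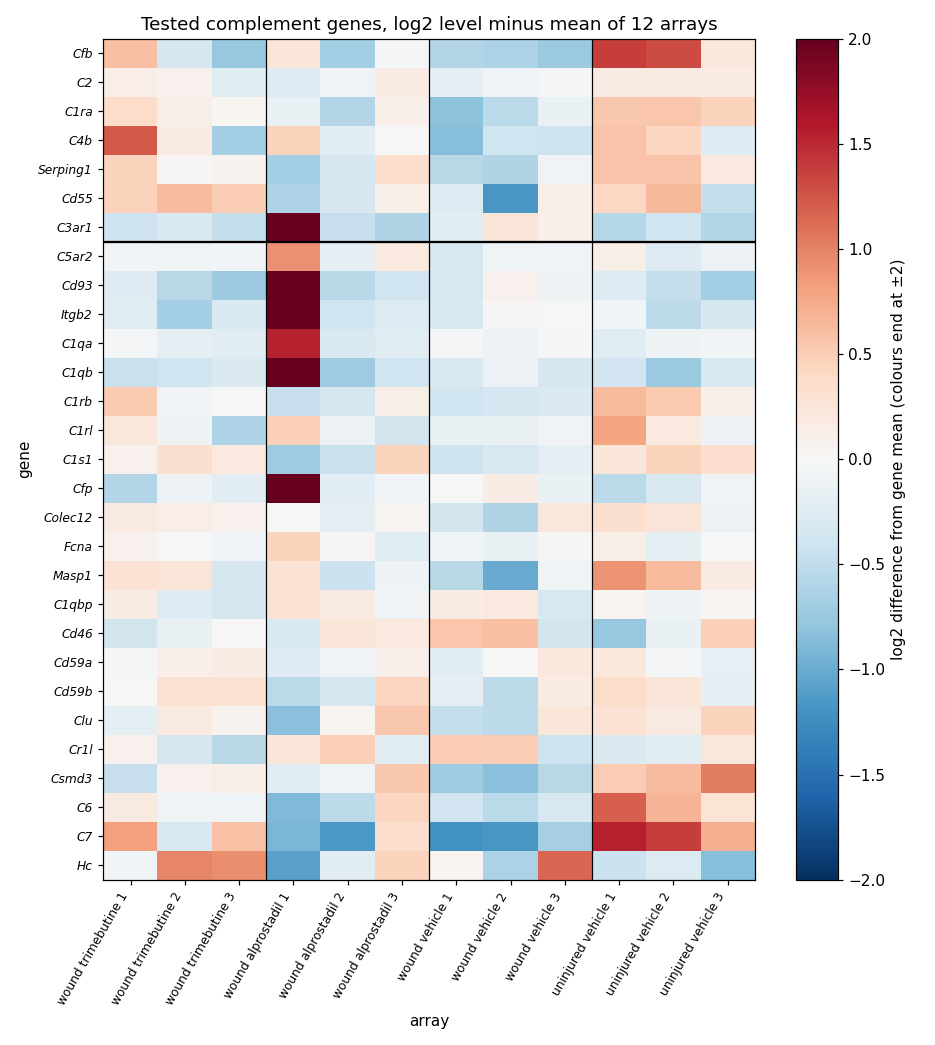
Log2 level minus the mean of 12 arrays (colour, ending at 2 log2 units either way) for the 7 tested genes described above (upper block) and the 22 tested genes of the other complement lists (lower block), by array (x axis, in 4 groups). Cfb, C4b, C7 and Masp1 are darkest red on uninjured or trimebutine arrays, while C3ar1, Cd93, Itgb2, C1qb and Cfp are red on wound alprostadil replicate 1.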

How the data were processed

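RNA of 12 SKP cultures was read on Affymetrix Mouse Gene 2.0 ST arrays. The authors deposited log2 expression values for each probe set. RMA and the package oligo are named, per the submitters' processing notes, without version or settings. Of 41345 probe sets, 23521 carry 1 symbol in the platform annotation, 1814 carry several and 16010 carry none. Only those with 1 symbol were used. Precision is limited by how many arrays there are.

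The brightest probe set per symbol was kept, and limma 3.58.1 in R 4.3.3 was fitted to 13153 genes in all 4 groups, with 8 residual degrees of freedom. Correlations and figures used Python 3.11.15 with scipy 1.17.1 and matplotlib 3.10.9. The scripts were tested on simulated data. The genes and lists were chosen with earlier results of these data known. Named are the 8 genes, per other complement list the 2 tested genes with the highest mean and the 2 with the largest range, any that passed, and the 5 most like C3ar1; the planned 5 most like C3 could not be listed.

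Replicate numbers did not pair the samples in wound vehicle against uninjured vehicle, where the correlations of deviations were -0.36, -0.38 and -0.64. In wound alprostadil against wound vehicle they were 0.19, 0.43 and 0.62, so the block was also fitted. The alternatives were the replicate block, 2 other filters, the mean of probe sets, median centring, only the groups compared and leaving out each array. Leaving out the 3 arrays of lowest median, and correlations on 8 arrays, were added after seeing the data.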

Additional observations from a re-analysis of the deposited data

How the results depend on the processing

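Of the 7 tested genes (Cfb, C2, C1ra, C4b, Serping1, Cd55 and C3ar1) none passed the threshold under any of the 19 alternatives that tested it, so the count of 0 held in every comparison and in the F test, the fit with the replicate block included. In that fit the adjusted p between wound vehicle and uninjured vehicle was 0.137 for C1ra and Cfb. With 1 probe set per gene, the mean of probe sets left the values of the 7 genes unchanged, as did the 2 other filters. Those alternatives can move only the SE and the p-values. Only leaving out single arrays turned a direction. Over these fits, C2, Serping1 and Cd55 in wound alprostadil against wound vehicle ranged from -0.083 to 0.13, from -0.093 to 0.42 and from -0.21 to 0.43, and C4b in wound trimebutine against uninjured vehicle ranged from -0.51 to 0.44. The count over all genes moved more. In wound vehicle against uninjured vehicle it was 6, and 2 with the replicate block, 1 with median centring, 0 with only the groups compared or without the 3 arrays of lowest median, and 0 to 30 without single arrays. In wound trimebutine against uninjured vehicle it was 26, and 10, 17, 15 and 0 under the same settings, 12 for genes above the median on all arrays and 0 to 30 without single arrays. For the F test it was 2, and 1 with median centring, 0 with the replicate block, for genes above the median on all arrays or without those 3 arrays, and 0 to 6 without single arrays. In wound trimebutine against wound vehicle, wound alprostadil against wound vehicle and wound alprostadil against uninjured vehicle it was 0, and up to 11, 1 and 11 without single arrays. C3ar1 and Cd55 were not tested under the stricter filter. C5ar1 lay below the array median on all arrays but 1, which limits what its signal can show.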
